A study of Mus musculus with 42 samples.

Results

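Small nucleolar RNA host genes are genes whose introns hold small nucleolar RNAs (snoRNAs). The list described here names 10 of them, Gas5, Snhg1, Snhg3, Snhg4, Snhg5, Snhg6, Snhg8, Snhg11, Snhg12 and Snhg18, and was joined by symbol to the Ensembl identifiers of the expression data through the mouse GENCODE annotation. Of the 10 listed genes, 7 had a matching row among the 14296 genes, and no row matched Snhg1, Snhg4 or Snhg8, which were not analysed here. The 42 libraries were made from W9.5 mouse embryonic stem cells (mESCs) of the 129X1/SvJ background, grown to passage 18 and then left to differentiate into embryoid bodies, without a directing agent, after leukaemia inhibitory factor was withdrawn. Cells were taken at 21 time points from 0 h to 120 h, every 6 h, in 2 courses named replicate A and replicate B, so that each time point held 2 libraries. All libraries came from 1 cell line, with stranded sequencing of polyadenylated RNA.

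A host transcript is spliced, its introns are trimmed to the mature snoRNAs, and the joined exons leave as a long noncoding RNA. Box C/D snoRNAs guide ribose methylation and box H/ACA snoRNAs guide pseudouridylation of ribosomal and spliceosomal RNA, each within a particle of core proteins. Many host transcripts begin with a tract of pyrimidines, as the messengers of the translation machinery do, and the spliced exons of several of them, Gas5 (growth arrest specific 5) included, are removed by nonsense-mediated decay once ribosomes engage them.

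Summed over genes, the median library had 29692082 reads, with the lowest at 10120972 (30 h, replicate B) and the highest at 51652434 (60 h, replicate B). A level of 3 reads stood for 0.0571 to 0.316 CPM (counts scaled to a library of fixed size), depending on the library. The pluripotency genes Pou5f1, Nanog and Sox2 had mean levels of 9.98, 8.89 and 9.38 log2 CPM at 0 h, and T (Brachyury), a gene of the primitive streak, was at -1.65 before differentiation and 6.76 at 96 h. The fibroblast markers, of which 5 of 6 were measured, summed to between 5.74 and 96.7 CPM over the libraries. Blood markers were listed too, and 0 of 3 had a row. The sums for the other marker lists lay between 1870 and 6020 CPM (pluripotent cells, 8 of 8 genes), 125 and 2010 CPM (primed epiblast, 4 of 4), 14.1 and 462 CPM (streak and mesoderm, 4 of 5), 1.81 and 27.9 CPM (endoderm, 4 of 5) and 14.4 and 355 CPM (neuroectoderm, 4 of 4). The part of these cell mixtures in the results below was not tested, and in whole cultures fewer cells of a type and less RNA per cell cannot be told apart.

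The 7 host genes held 23 annotated snoRNA genes on their own strand, of which 2 pairs overlapped each other. Gas5 (chromosome 1, 161034422 to 161038539, plus strand) held 10 of them, Snhg12 (chromosome 4, 132308623 to 132311024, plus strand) 5, and Snhg3 (chromosome 4, 132348014 to 132353686, minus strand), Snhg5 (chromosome 9, 88521050 to 88522929, minus strand) and Snhg11 (chromosome 2, 158375638 to 158386145, plus strand) 2 each. Snhg6 (chromosome 1, 9941959 to 9944118, minus strand) and Snhg18 (chromosome 15, 32240565 to 32244662, minus strand) held 1 each. All coordinates are GRCm38. A search for the C box letters TGATGA in the first 25 bases and the D box letters CTGA in the last 15 bases found both in 13 of the 23, which were 60 to 87 bases long. In 7 others the letters ACA stood within the last 6 bases, and these were 130 to 205 bases long, while 3 had neither pattern. Examples are shown here from the GENCODE transcripts for the 6 hosts that changed over the course, 1 for each host and both for Snhg5, 5′ to 3′, with these letters in capitals.
Snord50a, in Snhg5 (chr9:88521529-88521600, minus strand): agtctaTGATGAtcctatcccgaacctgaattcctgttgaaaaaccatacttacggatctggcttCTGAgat
Snord50b, in Snhg5 (chr9:88521797-88521868, minus strand): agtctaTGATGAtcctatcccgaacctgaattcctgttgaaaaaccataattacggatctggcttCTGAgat
Snord123, in Snhg18 (chr15:32241853-32241923, minus strand): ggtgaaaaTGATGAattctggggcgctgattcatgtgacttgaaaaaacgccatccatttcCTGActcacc
Gm25187, in Snhg11 (chr2:158378222-158378354, plus strand): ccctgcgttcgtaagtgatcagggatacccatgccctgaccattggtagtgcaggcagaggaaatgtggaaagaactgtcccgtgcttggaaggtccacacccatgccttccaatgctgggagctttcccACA
Snord47, in Gas5 (chr1:161038082-161038158, plus strand): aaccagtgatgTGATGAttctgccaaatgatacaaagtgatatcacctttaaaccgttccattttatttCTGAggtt
Snord99, in Snhg12 (chr4:132310691-132310764, plus strand): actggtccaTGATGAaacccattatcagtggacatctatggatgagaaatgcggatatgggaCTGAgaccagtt
Snora73b, in Snhg3 (chr4:132352322-132352526, minus strand): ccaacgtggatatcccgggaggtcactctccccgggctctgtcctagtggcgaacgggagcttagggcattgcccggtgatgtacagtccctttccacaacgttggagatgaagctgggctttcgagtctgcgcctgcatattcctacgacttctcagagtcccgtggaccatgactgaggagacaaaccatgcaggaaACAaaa
The Snhg5 pair differed at 1 of its 72 positions, C50A, counted from 1 at the 5′ end with the base of Snord50a first, an identity of 98.6%. Of the 23 snoRNA genes, 18 lay wholly inside stretches that at least 1 annotated transcript of the host keeps as exon. How the counting treated reads that fall on both genes is not stated in the sources used here, and they may be missing from the host counts. Such shared stretches made up 17.8% of the exon bases of Gas5 and 19.6% of those of Snhg12. Snhg3 shared 29.8% of its exon bases with Rcc1 and Snora73a on its own strand and 71.5% with Gm17300 on the opposite strand. These were the largest shares of the 7 hosts on either strand, so its count carries this uncertainty too.

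Six-hourly sampling asked first which hosts changed at all along the course. A moderated F test over the 21 time points (limma, Benjamini-Hochberg over all genes, adjusted p below 0.0001) called 6 of the 7 host genes, beside 74.6% of all genes. The adjusted p-values were 2.17e-15 for Snhg18, 1.26e-11 for Snhg5, 2.58e-11 for Snhg11, 3.13e-08 for Snhg12, 1.02e-06 for Snhg3 and 5.57e-06 for Gas5. Snhg6, the host of Snord87, had an adjusted p of 0.28. The share of called hosts was thus near the share of all genes, and the hosts differed from each other in the direction, the time and the size of their changes.

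**Figure D1:**
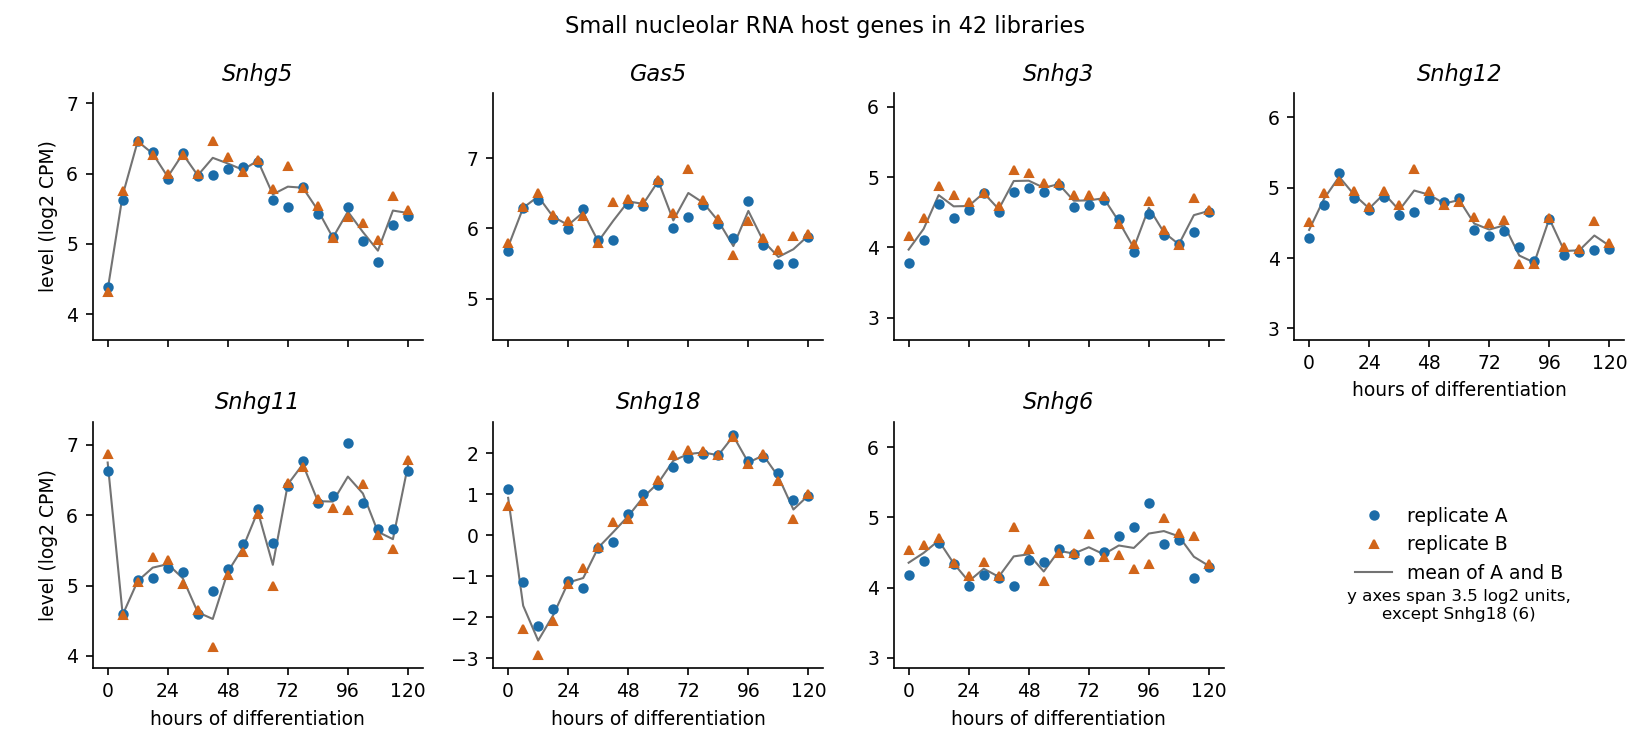
Level of each of the 7 host genes (y axis, log2 CPM) against hours of differentiation (x axis), with circles for replicate A, triangles for replicate B and a line through the mean of both. Snhg5 climbs from a mean of 4.35 to 6.46 in 12 h, Snhg11 and Snhg18 drop at 6 h and return later, and Snhg6 stays between 4.02 and 5.20 in all libraries.

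Levels per kilobase of exon, averaged over the 42 libraries, put Snhg5 first at 4.92 log2 CPM per kilobase, followed by Snhg3 at 4.56, Snhg6 at 4.27, Gas5 at 4.20, Snhg12 at 3.29 and Snhg11 at 2.62, with Snhg18 a further 2.62 below. Snhg5 was above Snhg3 in 38 of 42 libraries and Gas5 above Snhg12 in 42 of 42. Snhg6 and Gas5 were not separated, with a mean gap of 0.07 (SD 0.37) and Snhg6 the higher in 20 of 42 libraries. The gap between Snhg12 and Snhg11, at 0.68, was smaller than its SD of 1.02. These levels depend on how reads on shared exons were counted. They also depend on the exon length used. Counting the longest transcript alone raised Gas5 at 0 h from 3.83 to 4.39 and Snhg11 from 3.66 to 4.20 log2 CPM per kilobase. The shift was larger for Snhg3, with 986 exon bases and 581 in its longest transcript, and for Snhg12, with 2402 and 1538. For Snhg5 the lengths were 1730 and 1221, so its lead over Snhg3 was narrower with the longest transcript.

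Mean levels of Gas5, Snhg3 and Snhg5 were above 0 h at each of the 6 times compared. Only Snhg5 passed the threshold as a rise at all of them. In replicates A and B its level was 4.39 and 4.31 log2 CPM at 0 h, 5.63 and 5.76 at 6 h, and 6.46 in both at 12 h. These were 20.9 and 19.8 CPM before differentiation and 87.9 and 88.0 CPM at 12 h. The 12 h value was the highest mean of the course, and no library after 0 h came down to the 0 h level. The step from 0 h to 6 h was a rise of 1.35 on the log2 scale (SE 0.15, adjusted p = 2.54e-08, limma), or 2.54-fold, in both replicates. The next step to 12 h added 0.76 (SE 0.15), which did not pass the threshold (adjusted p = 0.000446), although it did with a replicate block for the pairing of libraries into courses (adjusted p = 8.42e-05). Against the undifferentiated cells, Snhg5 was higher by 1.61 after 24 h (adjusted p = 1.59e-09) and by 1.80 after 48 h (adjusted p = 9.05e-11). The excess was 1.47 at 72 h, 1.11 by 96 h and 1.09 when sampling ended at 120 h (adjusted p = 4.33e-09, 5.55e-07 and 7.82e-07, all with SE 0.15). At 72 h the duplicates lay apart, at 5.52 in A and 6.11 in B, the widest gap of this gene, and the difference at 72 h was 1.14 in course A alone and 1.80 in course B alone.

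After the second day Snhg5 declined. Its 8 libraries of day 3 (54 to 72 h) ran from 5.52 to 6.20 with a median of 6.05, and those of day 4 (78 to 96 h) from 5.08 to 5.81 with a median of 5.48. The fall between these days was 0.48 (SE 0.08, adjusted p = 5.56e-06), with overlapping groups. By 108 h the level was 4.75 and 5.06, the lowest after 0 h, before 5.40 and 5.48 at 120 h.

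The mean profiles of Gas5, Snhg3 and Snhg12 over the 21 time points had Pearson correlations with that of Snhg5 of 0.70, 0.88 and 0.79, and of 0.63 to 0.74 with one another, given as a description of serially dependent points that share their libraries. Snhg12 and Snhg3 lie 36989 bp apart on chromosome 4, on opposite strands. 

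Snhg3, whose snoRNA Snora73b belongs to the U17 family that takes part in the cleavage of the ribosomal RNA precursor, had levels of 3.78 and 4.16 log2 CPM at 0 h, 4.62 and 4.87 at 12 h and 4.84 and 5.06 at 48 h. Both 48 h libraries were above both 0 h libraries. The rise to 48 h was 0.98 (SE 0.15, adjusted p = 2.1e-06), or 1.98-fold. It lost the threshold without the 0 h library of replicate A (0.79, adjusted p = 0.000402) or the 48 h library of replicate B (0.88, adjusted p = 0.000229). At 24 h, 72 h and 96 h the differences of 0.62, 0.70 and 0.60 did not pass (adjusted p = 0.000795, 0.000208 and 0.00128), and passed with the replicate block (adjusted p = 2.34e-05, 3.85e-06 and 4.18e-05). From day 3 to day 4 the level went from a median of 4.77 to 4.43, a difference of -0.36 (SE 0.07, adjusted p = 0.000148, and 2.59e-06 with the replicate block).

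Gas5 had the highest mean level of the members over the 42 libraries, before any division by length. It was at 5.68 and 5.80 log2 CPM at 0 h, 6.29 and 6.30 at 6 h and 6.41 and 6.50 at 12 h. The level was highest at 60 h, with 6.66 and 6.69, and lowest at 108 h, with 5.50 and 5.69. None of the differences tested passed the threshold for Gas5. The 6 h difference was 0.55 (SE 0.16, adjusted p = 0.00422), the 48 h difference 0.64 (SE 0.16, adjusted p = 0.00108) and the 72 h difference 0.77 (SE 0.16, adjusted p = 0.000197). The last passed with the replicate block (adjusted p = 5.82e-05) and without the 72 h library of replicate A (1.10, adjusted p = 2.79e-06), since the duplicates at 72 h were 6.17 and 6.84. The range of its means, 1.09, was wider than that of 30.5% of all genes.

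Snhg12, with its mixed set of H/ACA and C/D snoRNAs, stood at 4.29 and 4.51 log2 CPM at 0 h, 4.76 and 4.93 at 6 h and 5.21 and 5.10 at 12 h. The level then went down to 3.96 and 3.91 at 90 h, the lowest of the course and below both 0 h libraries. The difference at 6 h, 0.44 (SE 0.14), did not pass (adjusted p = 0.0105), nor did that at 48 h, 0.50 (SE 0.14, adjusted p = 0.00395). From day 3 to day 4, Snhg12 fell by 0.38 (SE 0.07, adjusted p = 7.87e-05), with medians of 4.67 and 4.28 and overlapping groups. This call lay close to the threshold and was lost in 13 of the 16 fits that left out 1 library of these days (adjusted p up to 0.000428).

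Snhg11 and Snhg18 went the other way at the start. Snhg11, which the annotation lists as protein coding although it is known as a noncoding host, was at 6.63 and 6.87 log2 CPM at 0 h and at 4.59 and 4.58 at 6 h. The fall of 2.16 (SE 0.22, adjusted p = 3.66e-09) was 4.48-fold, with 2.04 in course A and 2.29 in course B. Levels stayed low for 2 days, at 5.25 and 5.36 at 24 h and 5.24 and 5.15 at 48 h, a fall of 1.45 (adjusted p = 3.13e-06) and 1.56 (adjusted p = 6.85e-07) from 0 h. The 24 h call was lost without the 24 h library of replicate A (adjusted p = 0.000172) or the 0 h library of replicate B (adjusted p = 0.000258).

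From day 2 to day 3 Snhg11 rose by 0.97 (SE 0.11, adjusted p = 1.27e-08), with medians of 4.97 and 5.81. It rose again by 0.59 from day 3 to day 4 (SE 0.11, adjusted p = 5.18e-05), to a median of 6.25, and this second call was lost in 13 of the 16 fits without 1 library (adjusted p up to 0.00029). At 72 h both libraries, 6.42 and 6.46, were close below the 0 h values, and at 120 h they were 6.63 and 6.78, which overlapped the 0 h pair. The course was not smooth. Levels went from 6.09 and 6.02 at 60 h to 5.60 and 4.99 at 66 h, and the 96 h duplicates, at 7.03 and 6.07, were the farthest apart of this gene.

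Snhg17, a host gene of the second list below, lies 14057 bp from Snhg11 on the opposite strand. The pair was picked out after its values were seen. Snhg17 was at 4.34 and 4.33 log2 CPM at 0 h and at 5.31 and 5.19 at 6 h, a rise of 0.91 (SE 0.12, adjusted p = 3.11e-07) over the same 6 h in which Snhg11 fell.

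Snhg18, the host of Snord123, had the lowest level and the widest range of the members, with a lowest mean of -2.56 log2 CPM (12 h) and a highest of 2.42 (90 h). That range, 4.98, exceeded that of 93.1% of all genes. The levels were 1.12 and 0.71 at 0 h, -1.14 and -2.29 at 6 h, -2.22 and -2.91 at 12 h and -1.12 and -1.18 at 24 h. The reads behind these values were few, with 51 and 39 at 0 h, 12 and 3 at 6 h, 6 and 5 at 12 h and 16 and 12 at 24 h. Both libraries of each of these times were below both at 0 h. The fall was 2.63 at 6 h (SE 0.29, adjusted p = 1.65e-08) and 2.07 at 24 h (SE 0.29, adjusted p = 1.09e-06). The latter lost the threshold without the 0 h library of replicate A (adjusted p = 0.000125). With so few reads the size depended on the offset, and on a log2(CPM + 1) scale the 6 h fall was 1.15. Scaled to library size, the summed reads at 6 h were 17.8% of those at 0 h (exact binomial 95% interval 9.57 to 30.9%, which covers counting error only) and those at 12 h were 8.15% (3.93 to 15.3%).

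Snhg18 then climbed for 3 days. Its 8 libraries ran from -2.91 to -1.12 on day 1 (6 to 24 h), from -1.29 to 0.53 on day 2 (30 to 48 h), from 0.84 to 2.08 on day 3 and from 1.73 to 2.45 on day 4. The rise was 1.65 from day 1 to day 2 (SE 0.14, adjusted p = 1.32e-10) and 1.70 from day 2 to day 3 (SE 0.14, adjusted p = 6.81e-11), where the groups did not overlap. On the log2(CPM + 1) scale the first of these rises was 0.56. From day 4 to day 5 (102 to 120 h) Snhg18 fell by 0.79 (SE 0.14, adjusted p = 5.12e-05), a call that was lost in 14 of the 16 fits without 1 library (adjusted p up to 0.00027). At 120 h both libraries, the lower at 0.95, lay between those of 0 h.

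**Figure D2:**
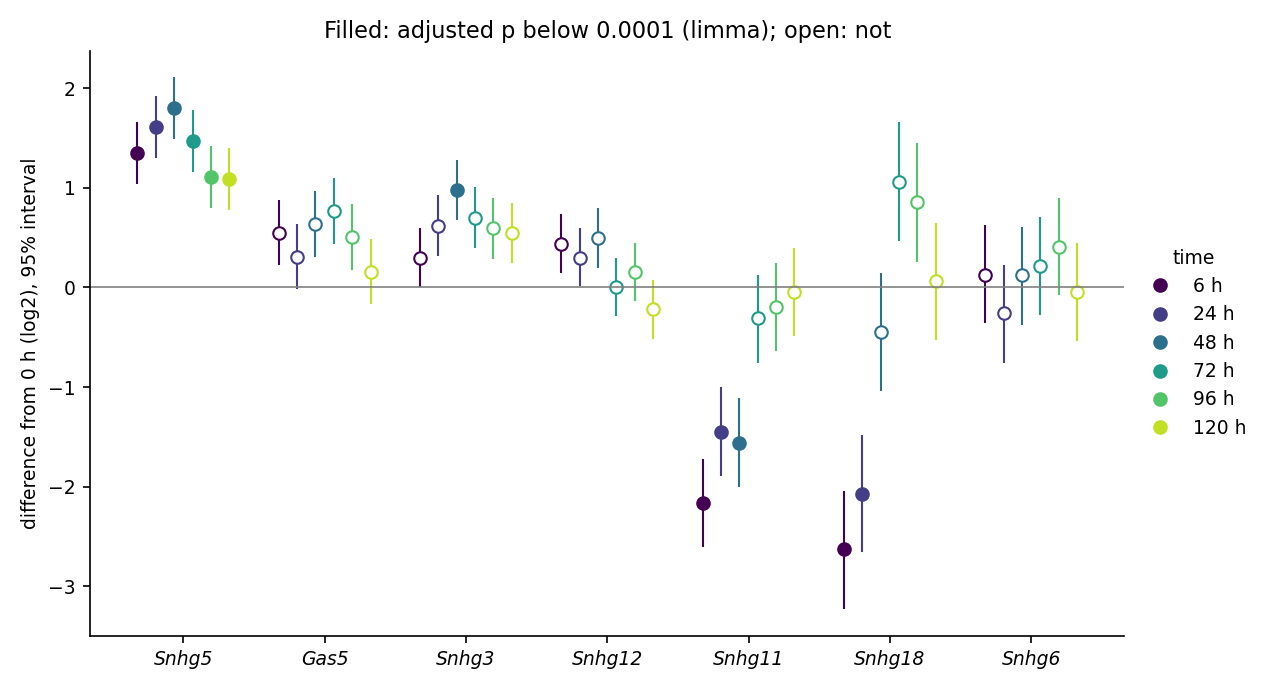
Difference of each host gene from 0 h (y axis, log2 scale, with the 95% interval of the fit) at 6, 24, 48, 72, 96 and 120 h, with filled circles where the adjusted p was below 0.0001. Snhg5 is filled at all 6 times, from 1.35 at 6 h to 1.09 at 120 h, whereas Snhg11 is filled at 6, 24 and 48 h and Snhg18 at 6 and 24 h, all below 0.

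Snhg6 was the member with no called change. Its library values ran from 4.02 to 5.20 log2 CPM with a median of 4.45. The values of replicate A and those of replicate B over time had a correlation of 0.04, against a median of 0.86 over all genes. The pooled SD between its duplicates, 0.26, was larger than the median of 0.18 over all genes, and at 96 h the duplicates were 5.20 and 4.34. Its difference from 0 h to 6 h had an SE of 0.24 and a 95% interval from -0.36 to 0.63, so that a change within that interval remains possible. The interval does not give the size of change that would have passed the threshold.

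Counted by comparison, 3 host genes passed from 0 h to 6 h (1 up, 2 down), beside 26.3% of all genes. From 0 h, 3 passed at 24 h (22.7% of all genes), 3 at 48 h (30.4%) and 1 each at 72 h (25.2%), 96 h (23.5%) and 120 h (23.0%), the last 3 being Snhg5 each time. With the replicate block, 3 passed at 72 h and 2 at 96 h. Between consecutive days, Snhg18 passed from day 1 to day 2 (28.7% of all genes), Snhg11 and Snhg18 from day 2 to day 3 (36.0%), Snhg5, Snhg11 and Snhg12 from day 3 to day 4 (22.9%) and Snhg18 from day 4 to day 5 (18.2%). Among the 140 pairs of a host gene and a 6 h step, 3 passed, all between 0 h and 6 h, beside 1.77% of such pairs over all genes. The comparisons with 0 h share their 0 h libraries. Dividing by counted reads alone, without the authors' scaling factors, shifted the median of all genes by -0.219 at 6 h, -0.162 at 24 h, -0.196 at 48 h and 0.131 from day 2 to day 3, and the rises of Snhg5 and falls of Snhg11 and Snhg18 named above from 0 h kept their calls on that scale. There Snhg12 lost its call from day 3 to day 4 (-0.29, adjusted p = 0.00153), while Gas5 passed from day 2 to day 3 (0.41, adjusted p = 5.75e-05) and from day 4 to day 5 (-0.44, adjusted p = 3.41e-05).

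Sequence at the start sites was compared because host genes are known for pyrimidine tracts there. RefSeq promoters (GRCm38.p6, 250 bases before to 50 after a start) were at hand for 6 of the 7 genes, with 2 starts for Gas5. The longest run of C and T that touched the 10 bases on either side of the start was 7 bases for Snhg5, 9 for Snhg12, 6 for the downstream start of Gas5, 10 for Snhg18, 5 for Snhg3 and 3 for Snhg11 and for the upstream start of Gas5. Runs at least that long were found in 19.7% of 32851 promoters for Snhg5, 9.55% for Snhg12, 29.2% for downstream Gas5, 6.97% for Snhg18, 44.9% for Snhg3 and 82.9% for Snhg11. The 60 bases centred on the start are shown for all 7 starts, 5′ to 3′ on the strand of the gene, with the run in capitals.
Snhg18 (start at position 32244662 of chromosome 15): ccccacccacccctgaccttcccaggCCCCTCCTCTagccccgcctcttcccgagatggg
Snhg5 (start at position 88522897 of chromosome 9): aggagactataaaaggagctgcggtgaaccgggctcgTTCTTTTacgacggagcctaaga
Snhg12 (start at position 132308678 of chromosome 4): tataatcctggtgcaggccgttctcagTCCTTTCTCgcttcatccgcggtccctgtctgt
Gas5, downstream (start at position 161035166 of chromosome 1): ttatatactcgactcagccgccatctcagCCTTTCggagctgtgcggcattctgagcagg
Snhg3 (start at position 132353686 of chromosome 4): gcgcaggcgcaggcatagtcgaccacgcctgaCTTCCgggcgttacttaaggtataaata
Gas5, upstream (start at position 161034601 of chromosome 1): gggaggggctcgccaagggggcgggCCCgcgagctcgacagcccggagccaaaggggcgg
Snhg11 (start at position 158375713 of chromosome 2): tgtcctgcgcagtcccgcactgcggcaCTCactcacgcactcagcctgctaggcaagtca
The letters TATAAA occurred on either strand in 2 of the 7 member promoters, those of Snhg5 and Snhg3, and in 13.6% of all promoters. The E box CACGTG, the site that Myc is known to bind, occurred in 0 of 7 and in 7.15% of all promoters. A match here is only a run of letters, and its absence concerns this window alone.

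Bidirectional pairs, genes on opposite strands whose starts lie within 2000 bp, were found for 3 members. Snhg18 starts 148 bp from Sema5a, which encodes a semaphorin of axon guidance, and their exons do not overlap. Sema5a was at 0.37 and 0.75 log2 CPM at 0 h, -1.70 and -0.85 at 6 h, -2.75 and -2.12 at 12 h, 2.88 and 2.67 at 48 h, 4.18 and 3.70 at 72 h and 1.16 and 1.52 at 120 h. Both genes thus had their lowest mean at 12 h, and at 72 h both libraries of each gene were above both of its 0 h libraries. The 72 h difference from 0 h passed for Sema5a (3.38, adjusted p = 2.08e-11, limma) but not for Snhg18 (1.06, adjusted p = 0.00268). Sema5a fell by 1.83 from 0 h to 6 h (SE 0.26, adjusted p = 1.5e-06), rose by 2.73 from day 1 to day 2 (SE 0.13, adjusted p = 4.48e-16) and by 2.25 from day 2 to day 3 (SE 0.13, adjusted p = 4.56e-14), and fell by 1.86 from day 4 to day 5 (SE 0.13, adjusted p = 5.18e-12). The correlation of the mean profiles was 0.94 over 21 time points. At 48 h Sema5a was above its 0 h level by 2.21 (adjusted p = 5.56e-08). Snhg18, at 0.53 and 0.41, was below both of its 0 h libraries, but its difference of -0.45 did not pass (adjusted p = 0.182). Reads of Sema5a ran from 4 to 664 per library and those of Snhg18 from 3 to 197.

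**Figure D3:**
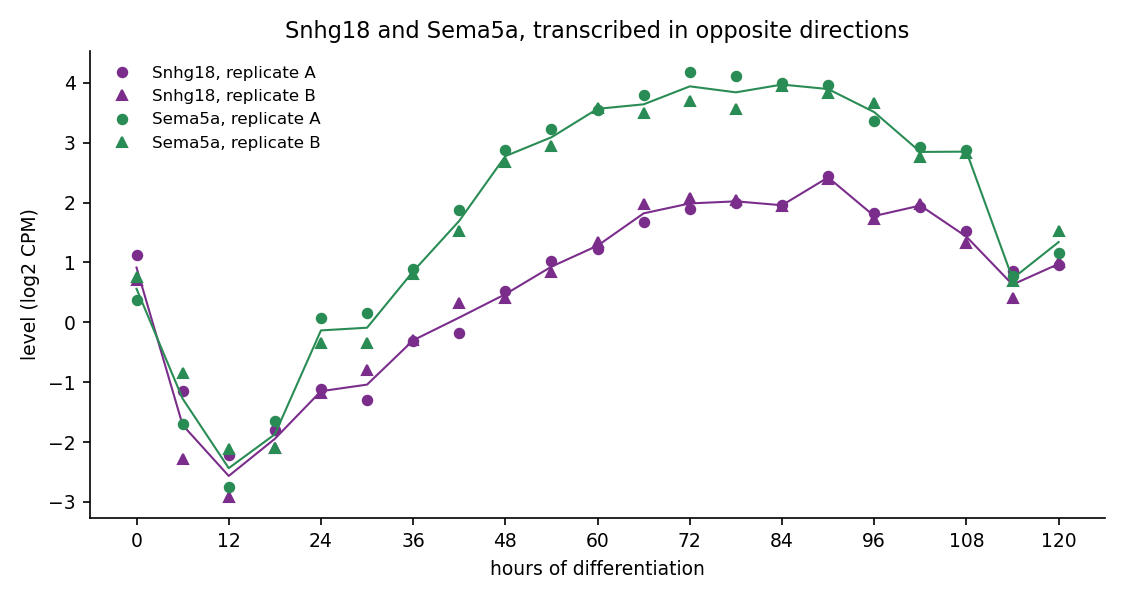
Level of Snhg18 and Sema5a (y axis, log2 CPM) against hours of differentiation (x axis), with circles for replicate A, triangles for replicate B and lines through the means. Both dip at 12 h, to means of -2.56 for Snhg18 and about as low for Sema5a (-2.75 and -2.12 in its libraries). Sema5a stands above Snhg18 in both replicates from 24 h to 108 h and again at 120 h.

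The stretch between the starts of this pair is printed because both genes are read outwards from it. It runs 5′ to 3′ on the minus strand over the 152 bases from the RefSeq start of Sema5a to that of Snhg18. The whole 300-base promoter of Snhg18, which holds it, had a GC content of 75.3% against a mean of 53.8% over all promoters.
Snhg18 to Sema5a (chr15:32244662-32244813, minus strand): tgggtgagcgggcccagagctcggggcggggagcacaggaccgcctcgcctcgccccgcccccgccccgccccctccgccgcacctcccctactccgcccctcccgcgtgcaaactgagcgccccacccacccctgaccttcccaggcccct

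Gas5 had Zbtb37, a zinc finger gene, as its partner at 427 bp. Zbtb37 went from 1.18 and 1.20 log2 CPM at 0 h to 3.12 and 2.86 at 6 h, a rise of 1.80 (SE 0.35, adjusted p = 9.13e-05), and the profiles had a correlation of 0.35. Its F test over the course did not pass (adjusted p = 0.000132). Snhg3 had the lincRNA Gm17300 as its partner at 1914 bp, with a correlation of -0.11. Gm17300 overlaps most exon bases of Snhg3 on the other strand.

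Candidates whose average reached 0 log2 CPM or more were ranked, and those most alike to each host by the correlation of mean profiles over 21 time points were named by a rule. For Snhg5 they were Gnl3 (nucleostemin, 0.935), which itself holds Snord19 and Snord69, and Hnrnpm (0.913), an RNA-binding protein of splicing. For Snhg12 they were Nsun5 (0.95), a ribosomal RNA methyltransferase, and Dus3l (0.95), a dihydrouridine synthase of transfer RNA. For Snhg3 they were Snhg5 (0.875) and Arglu1 (0.858), and for Gas5 5530601H04Rik (0.91) and Tmem199 (0.803). For Snhg6 they were Cnih1 (0.811) and 2410006H16Rik (0.802), a noncoding gene that holds Snord49a. For Snhg11 they were Ppp4r1l-ps (0.959) and Gtpbp2 (0.954), and for Snhg18 Megf6 (0.985) and Tbc1d16 (0.982). The standardized mean profile of the 7 hosts was most like Zfas1 (0.857), another noncoding snoRNA host, then Crebzf (0.809), Ppt1 (0.807), 1110038B12Rik (0.805) and Foxred2 (0.795). Correlations between pairs of hosts ran from -0.75 (Snhg12 and Snhg18) to 0.88 (Snhg3 and Snhg5), so this mean is not a course shared by all 7.

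Other hosts and the protein machinery of snoRNAs were read from lists, with a median difference over all genes of -0.05 from 0 h to 6 h, 0.01 from 0 h to 48 h and 0.01 from day 3 to day 4. The shares of all genes that passed in these comparisons, in either direction, were 26.3%, 30.4% and 22.9%. Of 15 further noncoding hosts, 10 were measured. From 0 h to 6 h 3 rose, Taf1d (1.40, a gene that also encodes a protein), Mir17hg (1.33, the host of a microRNA cluster rather than of snoRNAs) and Snhg17 (0.91), and 1 fell, Meg3 (-0.91), with a list median of 0.42. Of 29 protein-coding hosts outside the ribosome, 8 rose and 0 fell at 6 h (median 0.32), led by Toe1 (1.42), the chaperone Hspa8 (1.28), Ppan (1.21) and Nop56 (1.11). This count was near the 26.3% of all genes. The 7 hosts described here had a median of 0.30 at 6 h.

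Of the 5 proteins of the box C/D particle, 3 rose by 6 h and 4 by 48 h, with medians of 0.61 and 0.95. Nop58 rose by 1.17 and Nop56 by 1.11 at 6 h, and Snu13, which binds the kink formed by the C and D boxes, by 0.61 (adjusted p = 1.22e-07, 3.75e-06 and 2.71e-05). From day 3 to day 4, 4 of the 5 fell (median -0.51), with Rrp9 at -0.82 and Nop56 at -0.61. Of the 4 proteins of the box H/ACA particle, 0 passed at 6 h or 48 h in this limma fit (medians 0.44 and 0.74). An unadjusted p below 0.05 was reached at 6 h by 2 upwards and 1 downwards and at 48 h by 3 upwards, and with the replicate block 2 of the 4 passed at either time. From day 3 to day 4, 3 of them fell, Gar1 (-0.59), Nhp2 (-0.53) and the pseudouridine synthase Dkc1 (-0.52). Among 13 measured assembly and trafficking factors, 1 rose at 6 h (Phax, 0.95) and 5 at 48 h, with Naf1 (1.36) and the nucleolar chaperone Nolc1 (1.10) the largest, and 7 fell from day 3 to day 4.

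Factors of nonsense-mediated decay, 16 in all, had a median of 0.33 at 6 h, and Smg5 (1.11), Smg8 (0.93) and Upf3a (0.87) were among those that rose. By 48 h 2 had passed (median 0.08). Of 15 genes listed for the control of pyrimidine-tract messengers, growth regulators such as Myc included, 6 rose and 1 fell at 6 h (median 0.11). Myc rose by 3.15 and Larp4 by 0.95, while Ddit4, an inhibitor of mTOR signalling, fell by 1.41. The 76 cytosolic ribosomal protein genes, whose messengers carry such tracts, had a median of 0.02 at 6 h and no fall. From day 3 to day 4, 0 of the 76 passed in limma, while 31 were higher and 1 lower at an unadjusted p below 0.05, and 1 passed with the replicate block.

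**Figure D4:**
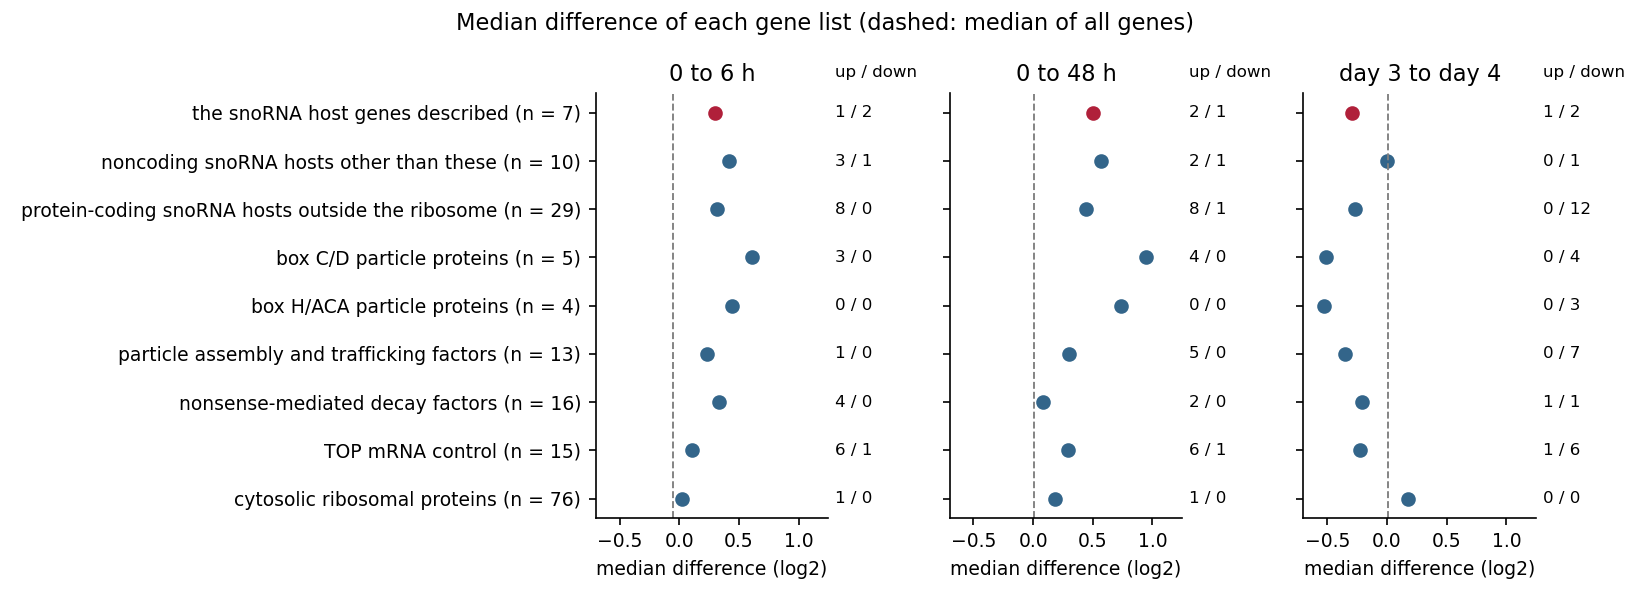
Median difference of each gene list (x axis, log2 scale) from 0 to 6 h, 0 to 48 h and day 3 to day 4, with a dashed line at the median of all genes and the numbers of genes that passed upwards and downwards at the right of each panel. The 5 box C/D proteins have medians of 0.61, 0.95 and -0.51, and the 76 ribosomal protein genes 0.02, 0.18 and 0.18.

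Of the snoRNAs inside the 7 hosts, 1 had a row of its own. Snora73b, in an intron of Snhg3 and also inside Rcc1, was at 1.60 and 2.29 log2 CPM at 0 h, 1.38 and 1.53 at 6 h and 2.62 and 2.67 at 48 h, from 31 to 275 reads, and its F test did not pass (adjusted p = 0.0102). The libraries selected polyadenylated RNA, so that a read on a snoRNA need not come from the mature molecule. Over the 40 snoRNA rows of the data, 5 rose and 1 fell from 0 h to 6 h, with a median of 0.99 and 37 of 40 above 0, beside 26.3% of all genes that passed in either direction. Genes had been kept only if above 1 CPM in at least 2 samples, and several of these rows lay near that level. Such a row could be kept through the times when it was high. The median, the count of rises and the count above 0 therefore cannot be read as a result about snoRNAs. The 5 that rose were Snora31, in Tpt1, 3 in Taf1d and Snora24, which the annotation places in Snhg8, a listed host with no row of its own. Of those in Taf1d, Gm22620 and Gm24299 had means of -0.73 and -0.86 log2 CPM at 0 h, below 1 CPM. The limit of the filter holds for their rises too. Snora24 had a mean of 0.29 log2 CPM before differentiation, 2.18 after 6 h and 2.78 after 12 h, a rise of 1.89 by 6 h (SE 0.28, adjusted p = 2.55e-06), on 25 to 292 reads per library. The row that fell was Snora43, by 1.60 (SE 0.19, adjusted p = 6.18e-08). These rows were named after their values were seen.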

How the data were processed

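Expression was measured by stranded polyadenylated RNA sequencing in 42 libraries, 21 time points with replicates A and B. Per the labels and the methods, the authors trimmed reads, mapped them with TopHat2 to mm10, counted them per gene with HTSeq on GENCODE vM2, kept genes above 1 CPM in at least 2 samples, applied edgeR scaling factors and then voom. Tool versions are not given in the sources used here. The values deposited by the authors are log2 CPM with an offset of 0.5 reads. Read counts were recovered from them, whole to within 1.5e-08 of a read, and their totals give the depth. Of 14296 identifiers, 14177 matched GENCODE vM21.

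Differences were tested with limma 3.58.1 (R 4.3.3; lmFit, eBayes with a trend) on the deposited values, with a factor of 21 time points over all 42 libraries, 21 residual degrees of freedom and Benjamini-Hochberg adjustment within each contrast. A call is an adjusted p below 0.0001. Per the labels, each letter marks a course, which gives the pairing used for the block. Residuals within a course correlated by 0.0795 on average, and in 68.6% of 210 pairs of time points the value was above 0. Differentiation courses were separate, but come from 1 cell line. The fit was tested on simulated data. Alternatives were the replicate block, voom weights, no trend, filters, scaling, offset, threshold and each library left out.

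Named by rule were all members, bidirectional partners, the 2 most alike genes of each member and 5 of their mean, and at most 4 called genes per list with the largest differences, of which some are not reported here. The members and lists were chosen with earlier results of these data known. Figures used matplotlib 3.10.9 and tables Python 3.11.15 with pandas 2.3.3.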

Additional observations from a re-analysis of the deposited data

How the results depend on the processing

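The 41 member differences examined were those with an adjusted p below 0.05 in the main limma fit, and 815 alternatives were run for them. Of these, 716 kept the side of the threshold, or moved by less than the spread between duplicates where no test was made. A further 48 lost the threshold, 39 passed it newly and 12 values without a test moved by more. The alternatives included the threshold of 0.05 itself, which all 41 passed by the way they were chosen. Part of the 39 was thus fixed in advance. No difference turned direction, but the block, the prior without a trend and the threshold leave the value unchanged and cannot turn it. The 3 calls from 0 h to 6 h held in all 12 tested alternatives, with adjusted p-values up to 3.6e-06. The replicate block raised the count of called hosts to 3 at 72 h and 2 at 96 h and, among the counts, changed no other by over 1.5 times. Voom weights gave 2 at 72 h and 5 from day 3 to day 4, a prior without a trend gave 1 from day 3 to day 4, a log2(CPM + 1) scale gave 2 at 72 h, and scaling by counted reads alone gave 2 from day 4 to day 5. At an adjusted p below 0.05 the counts were 5 for 0 to 6 h and for 0 to 48 h, 4 for 0 to 72 h and 0 to 96 h and 2 for 0 to 120 h. They were 2 from day 1 to day 2, 5 from day 2 to day 3, 6 from day 3 to day 4 and 4 from day 4 to day 5, with 18 of the 6 h steps. Shares of all genes are given above for the main fit alone and were not worked out for these other settings. The counts in this paragraph therefore cannot be read as a result about the hosts. Leaving out libraries gave 1 to 2 hosts at 72 h, 1 to 4 from day 3 to day 4 (4 without both 96 h libraries) and 0 to 1 from day 4 to day 5. The F test called 6 hosts in every alternative except a spline of time, which called 5. The later day comparisons are thus the least settled, and the cause was not tested. Gas5 passed from day 2 to day 3 without the 72 h library of replicate A (0.36, adjusted p = 7.52e-05), and Snhg12 without the 42 h library of replicate A (-0.32, adjusted p = 7.86e-05). A fit to 1 course alone has no residual degrees of freedom and gives values without a test. Depth limits Snhg18 most, at 3 to 197 reads per library.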
